A study of Mus musculus with 4 samples.

Results

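The expression of 10 genes was followed here. They encode lymphocyte surface molecules that restrain or tune T cells and lie outside the CD28 family, namely *Lag3*, *Tigit*, *Havcr2*, *Cd160*, *Cd96*, *Cd200*, *Cd226*, *Lair1*, *Cd5* and *Ceacam1*. They were picked by gene symbol, and all 10 are among the 24369 genes listed in the data. All 10 had enough counts to be tested, with 14143 genes tested in all. Both groups were GFP+ CD4 T cells grown from naïve CD4 T cells of the spleen of WT (C57BL/6) mice. They were activated with anti-CD3, anti-CD28 and IL-2, transduced on day 2 and cultured for 5 days in total. Before sorting they were restimulated, by the methods through CD3 for 5 hours and by the study's results with anti-CD3 and anti-CD28. The control group (EV RV) received a retrovirus carrying GFP alone and the other group (Tox RV) a retrovirus carrying Tox and GFP, with 2 libraries in each. The treatment label names a recombinant human anti-CD28 where the methods name recombinant human IL-2. Tox was thus expressed from an MSCV retroviral vector rather than its own promoter, in cells of 2 mice per group that had been cultured in vitro and kept only if transduced, and the age and sex of the mice are not given in the sources used here.

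T cells carry receptors that set how strongly they respond to the T cell receptor. Many of the inhibitory ones act through tyrosine motifs in their tails that recruit phosphatases, and several are known for accumulating on T cells that have seen antigen for a long time, a state in which Tox is also high. The members differ in what they bind and do. LAG-3 (*Lag3*) resembles CD4 and binds MHC class II, TIM-3 (*Havcr2*) binds galectin-9, CD160 binds HVEM, LAIR-1 binds collagens, CEACAM1 binds itself on other cells, and CD5 is a scavenger receptor family protein that tunes T cell receptor signals. TIGIT, CD96 and CD226 share ligands of the nectin family, and of these CD226 is activating. CD200 is itself a ligand, whose partner CD200R1 is the inhibitory receptor. The list therefore holds an activating receptor and a ligand beside the inhibitory receptors.

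The libraries held 46989997 to 74548723 expected counts, that is, estimated fragments per gene, which need not be whole numbers. Where 2 values of a group are given, replicate 1 comes first. *Tox* itself was at 7.22 and 3.37 TPM (transcripts per 1000000 transcripts, a level per transcript length) in EV RV and at 69.1 and 56.9 TPM in Tox RV, so all 4 libraries lay on the side of their labels. EV RV replicate 1 stood apart, with 24.7% of its counts on the ribosomal RNA precursor *Rn45s*, against 7.14% to 11.97% in the other 3 libraries. In all, 10 of 10 members differed more between the EV RV replicates than between the Tox RV replicates, as did 72.4% of 14103 genes with counts in each library. The CD4 T cell markers *Cd4*, *Cd3d*, *Cd3e*, *Cd3g* and *Cd28* summed to between 1193 and 1709.8 TPM, while 2 CD8 markers summed to at most 4.98, 5 B cell markers to at most 2.28 and 7 myeloid markers to at most 8.04 TPM. The 6 NK markers summed to 231 and 257 TPM in EV RV and to 407 and 307 TPM in Tox RV libraries, with 2 of the 5 tested higher and 3 lower. Their defining receptor gene *Ncr1* was at 0 counts in each library, and most of the sum was *Nkg7*, a gene of cytotoxic granules singled out after its values were seen. Without *Nkg7* the list summed to 70.5 and 72.0 TPM in EV RV, against 81.1 and 37.3 TPM in Tox RV libraries, which overlapped. The even EV RV sums held opposite differences between the replicates. *Klrd1* was at 33.2 and 4.21 TPM in EV RV and 21.9 and 4.26 TPM in Tox RV. *Klrk1* was at 19.85 and 5.46 TPM in EV RV and 8.65 and 2.44 TPM in Tox RV. *Gzma* was at 16.7 and 62.2 TPM in EV RV and 50.2 and 30.5 TPM in Tox RV. The 4 Treg markers summed to 688 and 811 TPM in EV RV, against 644 and 630.3 TPM in Tox RV libraries. Nearly all of that sum was *Il2ra* (336 to 490.4 TPM) and *Ctla4* (226 to 310.4 TPM), which activated CD4 T cells also express, while the lineage factor *Foxp3* was at 0.54 TPM or less in each library. In bulk samples such as these, fewer cells with a transcript and less transcript per cell cannot be told apart.

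All 10 genes were detected in each library, over a range from 0.92 TPM (*Lair1* in EV RV replicate 1) to 178 TPM (*Cd5* in the same library). In EV RV cells *Cd5* was the most abundant at 129 ± 68.6 TPM (SD, n = 2), followed by *Cd96* at 66.6 ± 12.5 TPM. *Lag3* (37.6 TPM), *Cd200* (32.2 TPM), *Tigit* (30.005 TPM) and *Havcr2* (28.5 TPM) came next, each neighbour in this order overlapping the one after it. The same held for *Havcr2* and *Cd160* (12.4 TPM) and for *Cd160* and *Cd226* (11.4 TPM). *Ceacam1* at 3.69 ± 0.856 TPM and *Lair1* at 1.495 ± 0.813 TPM were lowest and overlapped none of their neighbours. In Tox RV cells *Cd5* (111 ± 3.51 TPM) and *Cd96* (84.4 ± 6.84 TPM) again led, and *Havcr2* came next at 46.6 ± 12.5 TPM. *Lag3* (26.2 TPM), *Cd160* (25 TPM) and *Cd200* (20.2 TPM) then overlapped in sequence, above *Tigit* (15.6 TPM) and *Cd226* (7.08 TPM), and *Lair1* at 3.47 ± 0.919 TPM lay above *Ceacam1* at 2.21 ± 0.417 TPM. Summed over the 10 genes the level was 408 and 299 TPM in the EV RV and 356 and 328 TPM in the Tox RV libraries, so the groups overlapped. *Cd5* alone made up 43.7% of this sum in EV RV replicate 1 and 27.1% to 34.7% in the other 3 libraries.

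**Figure D1:**
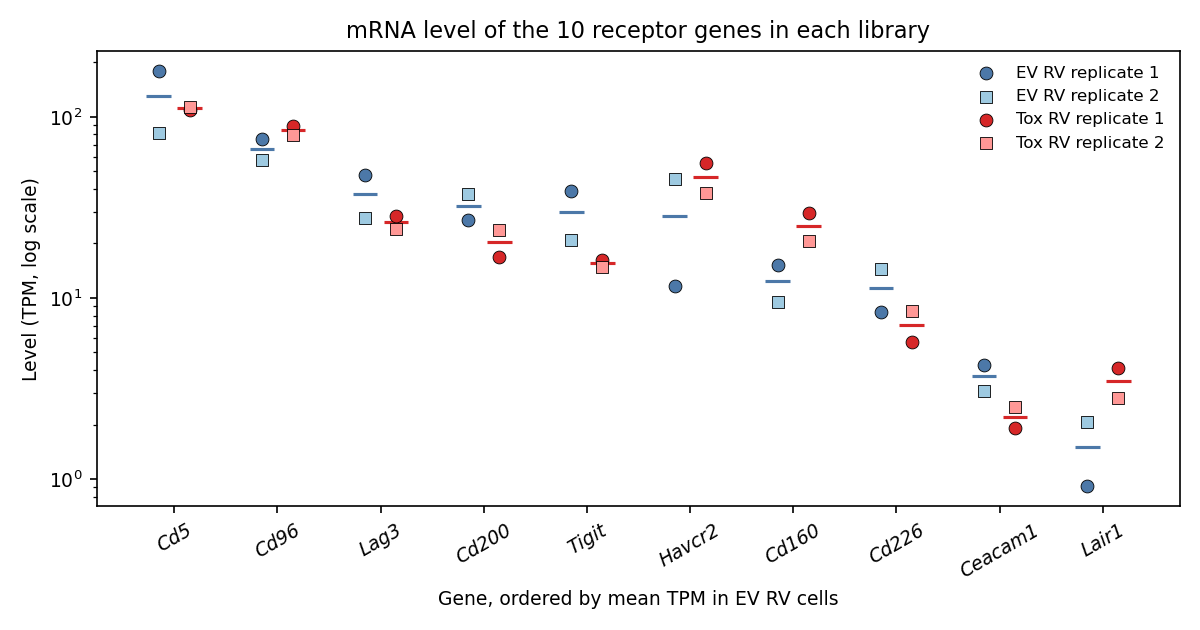
Level of each gene in TPM on a log axis, with a point for each library and a short line at the mean of each group of 2. The 2 Tox RV points lie above both EV RV points for *Cd160*, *Cd96* and *Lair1*, and below both for *Tigit*, *Cd200* and *Ceacam1*.

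Both Tox RV libraries had more *Cd160*, *Lair1* and *Cd96* mRNA and less *Tigit*, *Ceacam1* and *Cd200* mRNA than both EV RV libraries. The fitted differences between the groups were at most 2.39-fold. *Lag3*, *Havcr2*, *Cd226* and *Cd5* overlapped between the groups. In edgeR's quasi-likelihood test, 0 of 10 members passed an adjusted p-value of 0.05 (Benjamini-Hochberg over all genes), as did 0% of all genes tested. Their adjusted p-values were 0.897, and 0.952 for *Cd5*. An unadjusted p-value below 0.05 was found for 3 of 10 members, with *Cd160* and *Lair1* higher and *Tigit* lower, beside 3.62% of all genes tested (1.07% higher and 2.55% lower). By DESeq2, the tool named in the methods, 0 of 10 members passed an adjusted p-value of 0.05 (0.121% of all genes did), and 5 of 10 had an unadjusted p-value below 0.05 (3.21% of all genes did). A fold change above 2 was seen in 2 of 10 members, *Cd160* and *Lair1*, beside 3.38% of all genes tested. The groups did not overlap in 6 of 10 members, 3 in each direction, beside 36.0% of all genes tested (18.6% higher and 17.4% lower). The median log2 fold change, Tox RV over EV RV (log2FC), was -0.28 over the members and 0.0036 over all genes tested. With 2 libraries against 2, an exact two-sided permutation test of a single gene cannot go below p = 0.333. *Pdcd1*, the gene of the CD28 family receptor PD-1, was at 22.0 and 20.7 TPM in EV RV and 75.9 and 61.8 TPM in Tox RV libraries. Its log2FC was 1.77 (standard error, SE, 0.19), with adjusted p = 0.490 by edgeR and 1.06e-08 by DESeq2. No member had a change of that size in the fit of all 4 libraries, but the difference from *Pdcd1* was not tested. The transduced gene *Tox* (log2FC 3.68) was missed by edgeR too (adjusted p = 0.490), whereas DESeq2 called it (adjusted p = 3.79e-24). The edgeR result of 0 of 10 members therefore does not show that the members were unchanged. DESeq2 called *Tox* and *Pdcd1* but none of the members.

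**Figure D2:**
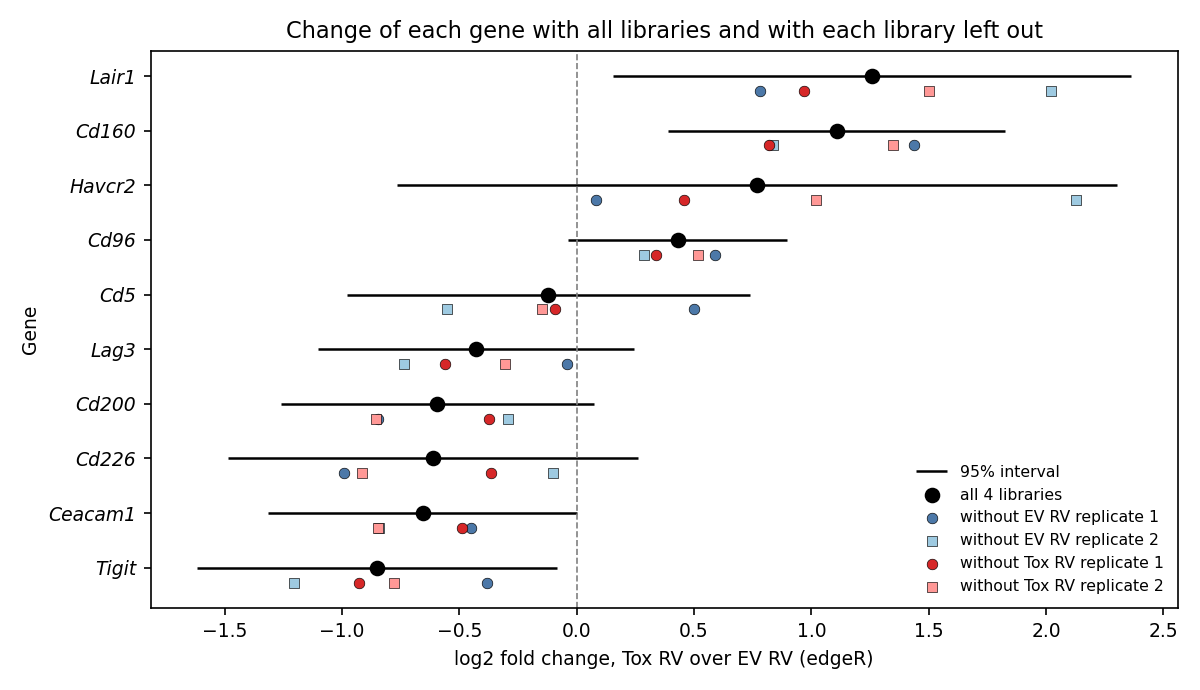
Log2 fold change of each gene, Tox RV over EV RV, as a black point with its 95% interval from edgeR's quasi-likelihood fit, and below it the value with each library left out. The interval stays on 1 side of 0 for *Cd160*, *Lair1* and *Tigit*, and *Cd5* changes side without EV RV replicate 1.

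*Cd160* encodes a glycolipid-anchored immunoglobulin-like receptor of NK cells and activated T cells. Its level was 15.3 and 9.46 TPM in EV RV and 29.45 and 20.55 TPM in Tox RV. Both Tox RV libraries were therefore above both EV RV libraries. The log2FC was 1.11 (SE 0.29, 95% interval 0.39 to 1.82), or 2.15-fold, and *Cd160* ranked 72 of the 14143 genes by edgeR's unadjusted p-value (0.00948). Its adjusted p-value was 0.897 in edgeR and 0.189 in DESeq2. It was 0.0460 in edgeR with the replicate number as a block, where 1 of 10 members and 0.113% of all genes were called. With each library left out the log2FC ranged from 0.82 (without Tox RV replicate 1) to 1.44 (without EV RV replicate 1). *Nkg7* was also higher in both Tox RV libraries (161 and 185 TPM in EV RV, against 326 and 269.6 TPM), whereas the other NK markers together overlapped between the groups. Their part in the differences of *Cd160*, *Lair1* and *Cd96* was not tested. In mm10, *Cd160* spans 96798763 to 96829351 of chromosome 3 (minus strand), and 68 bases of its exons overlap *Pdzk1* on the other strand, which had a log2FC of -0.39 (SE 0.36). RefSeq gives *Cd160* 2 start sites. The 250 bases before each (GRCm38.p6, 5′ to 3′ on the strand of the gene) are shown because this gene had the smallest p-value of the members. Capitals mark TGTGGT, the core letters bound by RUNX factors, on either strand:
Cd160 upstream start (chr3:96829352-96829601, minus strand): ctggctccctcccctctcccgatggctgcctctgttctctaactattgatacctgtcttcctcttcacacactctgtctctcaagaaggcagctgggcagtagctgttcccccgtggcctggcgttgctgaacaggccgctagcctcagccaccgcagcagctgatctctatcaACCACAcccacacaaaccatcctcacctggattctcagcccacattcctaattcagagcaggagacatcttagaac
Cd160 downstream start (chr3:96814522-96814771, minus strand): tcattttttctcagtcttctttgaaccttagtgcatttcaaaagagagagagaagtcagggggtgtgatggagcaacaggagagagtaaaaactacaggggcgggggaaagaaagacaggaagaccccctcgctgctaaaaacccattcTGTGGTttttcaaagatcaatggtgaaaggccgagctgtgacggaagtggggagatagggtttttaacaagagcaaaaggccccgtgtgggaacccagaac
The match lies 76 bases before the upstream start and 101 bases before the downstream one.

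*Lair1* encodes the collagen receptor LAIR-1, which carries inhibitory tyrosine motifs. It was the least abundant member in EV RV cells, at 0.92 and 2.07 TPM in replicates 1 and 2, against 4.12 and 2.82 TPM in Tox RV. The rounded counts behind these levels were 77 and 326 in EV RV, against 550 and 314 in Tox RV libraries. The Tox RV libraries were again both higher. The EV RV replicates themselves differed 2.35-fold. The log2FC of 1.26 (SE 0.45, 95% interval 0.15 to 2.36) was the largest of the members, with an adjusted p-value of 0.897 in edgeR and 0.525 in DESeq2. It was 0.78 without EV RV replicate 1 and 2.02 without EV RV replicate 2. In the latter fit the only control was EV RV replicate 1, the library that stood apart. The gene lies on chromosome 7 from 4003402 to 4063204 (minus strand). A stretch of 304 bases of a *Lair1* transcript is 97.0% identical to *Vmn2r86*, which had at most 3 counts in any library. The 250 bases before the RefSeq start hold none of the motifs searched and are shown beside those of *Cd160*, the other member with a positive interval:
Lair1 (chr7:4063205-4063454, minus strand): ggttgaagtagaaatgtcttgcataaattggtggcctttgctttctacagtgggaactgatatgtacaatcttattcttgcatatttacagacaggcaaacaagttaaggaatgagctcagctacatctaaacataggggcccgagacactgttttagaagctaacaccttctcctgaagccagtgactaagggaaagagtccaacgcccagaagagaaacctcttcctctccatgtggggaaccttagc

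*Tigit* encodes an inhibitory receptor that competes with CD226 for the ligands PVR and nectin-2. Its level was 39.1 and 20.9 TPM in EV RV and 16.3 and 14.8 TPM in Tox RV. The Tox RV libraries were close to each other and below both EV RV libraries, and EV RV replicate 1 was the highest. Tox RV cells had 1.80-fold less *Tigit* mRNA, a log2FC of -0.85 (SE 0.31, 95% interval -1.62 to -0.08, adjusted p = 0.897 in edgeR and 0.977 in DESeq2). The value was -0.38 without EV RV replicate 1 and -1.20 without EV RV replicate 2. In the latter fit EV RV replicate 1 was the only control. *Tigit* lies on chromosome 16 from 43648867 to 43664146 (minus strand), and its RefSeq start was not found in a GENCODE transcript. Its upstream window is the one of the member with the negative interval, with TGTGGT in capitals (here on the other strand, as ACCACA), 140 bases before the start:
Tigit (chr16:43664185-43664434, minus strand): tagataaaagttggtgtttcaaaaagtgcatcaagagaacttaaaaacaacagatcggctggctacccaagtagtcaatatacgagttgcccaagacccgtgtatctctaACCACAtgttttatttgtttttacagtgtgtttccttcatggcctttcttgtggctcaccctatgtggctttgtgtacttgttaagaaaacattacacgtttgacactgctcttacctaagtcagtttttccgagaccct

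Promoter windows were found in the RefSeq table for 8 of the 10 members (not *Lag3* and *Cd226*), 9 windows in all. The starts of *Tigit*, *Havcr2* and *Ceacam1* were not found in a GENCODE transcript. Of the 4 motifs searched on both strands, the AP-1 site TGACTCA was in 0 of 9 windows (4.46% of 32851 windows of all genes) and the composite AP-1 and IRF element AICE in 0 of 9 (0.0974% of all). An AICE match can hold an AP-1 site. The letters TGGAAA of NFAT factors were in 2 of 9 windows (*Cd96* and *Ceacam1*, 18.6% of all) and TGTGGT was in 5 of 9 (*Cd160* with both windows, *Cd96*, *Havcr2* and *Tigit*, 14.0% of all). Both *Cd160* and *Tigit*, whose levels lay on opposite sides, are among the genes with TGTGGT.

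Of the other 2 receptors that share ligands with TIGIT, *Cd96* was at 75.5 and 57.8 TPM in EV RV and at 89.3 and 79.6 TPM in Tox RV. Its EV RV replicates differed by 1.24-fold, the smallest such gap of the members, and both Tox RV libraries were higher, by 1.35-fold (log2FC 0.43, SE 0.19, 95% interval -0.04 to 0.90). The activating receptor gene *Cd226* was at 8.32 and 14.5 TPM in EV RV and at 5.69 and 8.46 TPM in Tox RV. The groups overlapped, since Tox RV replicate 2 lay above EV RV replicate 1. Its log2FC was -0.61 (SE 0.35, 95% interval -1.49 to 0.26), running from -0.99 without EV RV replicate 1 to -0.10 without EV RV replicate 2. Within a library, the ratio of *Tigit* to *Cd226* in TPM was 4.70 and 1.44 in EV RV, against 2.86 and 1.75 in Tox RV. Both Tox RV values lay between the EV RV values. The ratio of *Cd96* to *Cd226* was 9.07 and 3.99 in EV RV, against 15.7 and 9.41 in Tox RV libraries, so both Tox RV values were higher. The mean log2 ratio of *Cd96* to *Cd226* was 1.01 higher in Tox RV cells, beside an SD of 0.70 within groups. It was 0.42 higher without EV RV replicate 2 and 1.61 higher without EV RV replicate 1. The shared ligand gene *Pvr* was at 14.1 and 9.05 TPM in EV RV and 9.42 and 9.04 TPM in Tox RV libraries.

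**Figure D3:**
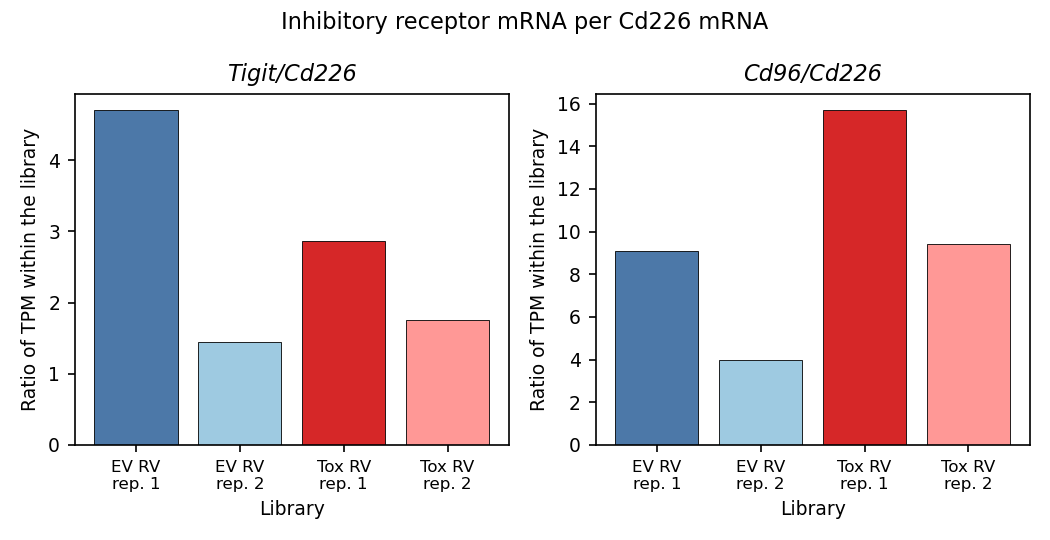
Ratio of *Tigit* to *Cd226* (left) and of *Cd96* to *Cd226* (right), both in TPM, in each library. The *Tigit* ratio of both Tox RV libraries lies between the EV RV libraries, while for *Cd96* both Tox RV bars (15.7 and 9.41) are above the EV RV bars (9.07 and 3.99).

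*Havcr2*, the gene of TIM-3, was at 11.7 and 45.3 TPM in EV RV and at 55.5 and 37.8 TPM in Tox RV. EV RV replicate 1 was low and EV RV replicate 2 lay between the Tox RV libraries, so the groups overlapped. The EV RV replicates differed 4.09-fold, a larger gap than in 98.6% of all genes tested. The log2FC of 0.77 (SE 0.62, 95% interval -0.76 to 2.30) was 0.082 without EV RV replicate 1 and 2.13 without EV RV replicate 2, the latter with an adjusted p-value of 0.0331 in edgeR, where 4.16% of all genes were called. The size of the difference thus rested on which EV RV library was kept. *Lgals9*, which encodes its ligand galectin-9, was at 72.7 and 32.8 TPM in EV RV and at 25.8 and 27.2 TPM in Tox RV libraries, lower in both (log2FC -0.90, SE 0.36, adjusted p = 0.897). *Bag6*, whose product binds the TIM-3 tail, had a log2FC of -0.17 (SE 0.21).

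*Lag3* was at 47.5 and 27.7 TPM in EV RV and at 28.4 and 23.9 TPM in Tox RV. EV RV replicate 1 was the highest, and Tox RV replicate 1 lay just above EV RV replicate 2, so the groups overlapped. The log2FC was -0.43 (SE 0.27, 95% interval -1.10 to 0.25), and it was -0.04 without EV RV replicate 1 and -0.74 without EV RV replicate 2. *Lag3* is on chromosome 6 from 124904361 to 124911705 (minus strand), separated by 16139 bases and no other protein-coding gene from *Cd4*, its structural relative. *Cd4* was at 218 and 174 TPM in EV RV and 250.1 and 229 TPM in Tox RV libraries, higher in both Tox RV libraries (log2FC 0.38, SE 0.18, adjusted p = 0.897). Of the proteases that release LAG-3 from the surface, *Adam10* had a log2FC of -0.21 and *Adam17* of 0.27, with SEs of 0.16 each.

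*Cd5* was at 178 and 81.0 TPM in EV RV and at 109 and 114 TPM in Tox RV. The EV RV replicates differed 2.09-fold with both Tox RV libraries between them, and the Tox RV libraries agreed within 1.04-fold. The log2FC of -0.12 (SE 0.35, adjusted p = 0.952) became 0.50 without EV RV replicate 1 and 0.034 when libraries were scaled by their totals, a scaling that moved the median of all genes by 0.12. *Cd6*, a relative of *Cd5* that lies 50338 bases away on chromosome 19 with no protein-coding gene between them, was at 94.4 and 58.3 TPM in EV RV and 73.0 and 66.8 TPM in Tox RV libraries. Its log2FC was -0.03 (SE 0.24), with the EV RV libraries again on either side of the Tox RV libraries.

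*Cd200* was at 27 and 37.4 TPM in EV RV and at 16.8 and 23.7 TPM in Tox RV. Both Tox RV libraries were lower, by 1.51-fold (log2FC -0.59, SE 0.27, 95% interval -1.26 to 0.07), and the value was -0.29 without EV RV replicate 2 and -0.86 without Tox RV replicate 2. The gene of its receptor, *Cd200r1*, was at 9.11 and 11.2 TPM in EV RV and at 13.5 and 11.6 TPM in Tox RV libraries (log2FC 0.39, SE 0.22). *Ceacam1* was at 4.29 and 3.08 TPM in EV RV and at 1.91 and 2.50 TPM in Tox RV. Both Tox RV libraries were lower, by 1.58-fold (log2FC -0.66, SE 0.27, 95% interval -1.31 to 0.00097), with values from -0.85 to -0.45 when single libraries were dropped. A transcript of *Ceacam1* is 91.2% identical to *Ceacam2* over 2045 bases, a gene that was at no more than 0.20 TPM in any library.

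**Figure D4:**
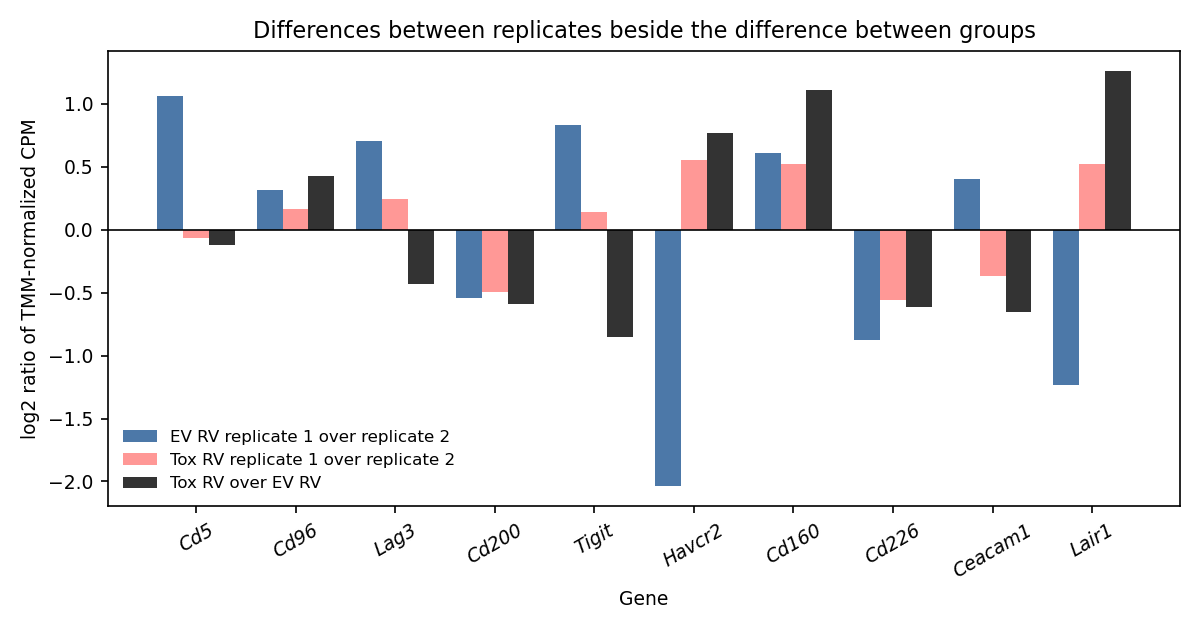
For each gene, the log2 ratio of TMM-normalized CPM between the EV RV replicates, between the Tox RV replicates, and the log2FC between the groups. The EV RV bar is longer than the group bar for *Cd5*, *Lag3*, *Havcr2* and *Cd226*, and the EV RV bar is longer than the Tox RV bar for each of the 10 genes.

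Set side by side, the difference between the EV RV replicates exceeded the difference between the groups in 4 of 10 members (*Lag3*, *Havcr2*, *Cd226* and *Cd5*), and in 71.5% of the 14103 genes. In EV RV replicate 1, *Cd5*, *Tigit*, *Lag3*, *Cd160*, *Ceacam1* and *Cd96* were higher than in replicate 2, and *Havcr2*, *Lair1*, *Cd226* and *Cd200* were lower. *Tigit*, *Cd200* and *Cd96* lie on the same strand of chromosome 16, with 1.72 Mb between *Tigit* and *Cd200* and 0.627 Mb between *Cd200* and *Cd96*. Of these, *Tigit* and *Cd200* were lower and *Cd96* was higher in Tox RV cells. *Cd200* spans 45382135 to 45409053 and *Cd96* 46035657 to 46120251 of that chromosome. *Havcr2* lies on chromosome 11 from 46454935 to 46481255 (plus strand), *Cd5* on chromosome 19 from 10717116 to 10739002 (minus strand) and *Ceacam1* on chromosome 7 from 25461707 to 25477603 (minus strand). For the 4 members with several transcripts, the mean transcript length weighted by isoform abundance was 2505 to 2514 bases for *Cd160*, 2461 to 2487 for *Cd226*, 3398 to 3456 for *Lair1* and 3533 to 3581 for *Ceacam1* over the 4 libraries.

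Of 23 ligand and partner genes of these receptors, 19 were tested, with 10 higher and 9 lower in the Tox RV group, and 0 passed an adjusted p-value of 0.05 in edgeR or DESeq2. At an unadjusted edgeR p-value below 0.05, 2 were higher and 1 was lower, beside 1.07% and 2.55% of all genes tested, and the median log2FC was 0.0097, beside 0.0036 for all genes. The smallest p-value belonged to *Tnfsf14*, which encodes LIGHT, another ligand of the CD160 partner HVEM. It was at 12.5 and 19.9 TPM in EV RV and 38.5 and 25.7 TPM in Tox RV libraries, higher in both (log2FC 1.06, SE 0.32, adjusted p = 0.897). The HVEM gene *Tnfrsf14* was at 70.4 and 27 TPM in EV RV and 32.5 and 34.2 TPM in Tox RV libraries, which overlapped. *Lgals3*, the gene of galectin-3, a carbohydrate-binding partner of LAG-3, was at 38.2 and 44.6 TPM in EV RV and 82.5 and 53.2 TPM in Tox RV libraries (log2FC 0.79, SE 0.26, adjusted p = 0.897).

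Of 16 signalling partners, all tested, 11 were higher and 5 lower, 0 passed an adjusted p-value of 0.05 in edgeR or DESeq2, and 2 were higher and 1 lower at an unadjusted edgeR p-value below 0.05, beside 1.07% and 2.55% of all genes tested. Over all genes 7135 were higher and 7008 lower. The median log2FC of the 16 was 0.072, beside 0.0036. *Ptpn6*, which encodes the phosphatase SHP-1 that tyrosine motifs of CEACAM1 and LAIR-1 recruit, was at 176 and 139.99 TPM in EV RV and 249 and 204 TPM in Tox RV libraries (log2FC 0.60, SE 0.19, adjusted p = 0.897). *Vav1*, a guanine nucleotide exchange factor downstream of CD226, was at 52.8 and 47.7 TPM in EV RV and 75.1 and 66.3 TPM in Tox RV libraries (log2FC 0.58, SE 0.17, adjusted p = 0.897). *Cbl*, the gene of a ubiquitin ligase that CD5 engages, was at 43.6 and 28.6 TPM in EV RV and 22.1 and 23.3 TPM in Tox RV libraries (log2FC -0.58, SE 0.22, adjusted p = 0.897). The groups overlapped in 12 of the 16 genes, and did not in these 3, which were named for their small p-values. The phosphatases *Ptpn11* (SHP-2) and *Inpp5d* (SHIP-1) had log2FCs of 0.017 and 0.072, with SEs of 0.16 and 0.18. Of 9 relatives of the members 5 were tested, of which 3 were higher and 2 lower, with 0 called. Among the TIM family genes, *Timd2* stayed at or below 0.22 TPM.

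Several members respond to T cell receptor signals, so 11 genes of that response were read beside them (*Nr4a1*, *Nr4a2*, *Nr4a3*, *Egr1*, *Egr2*, *Egr3*, *Cd69*, *Tnfrsf9*, *Il2ra*, *Myc* and *Irf4*). In Tox RV cells 5 of them were higher and 6 lower. An adjusted p-value below 0.05 was found for 0 of them in edgeR or DESeq2. An unadjusted edgeR p-value below 0.05 was found for 2 that were higher (*Nr4a2* and *Tnfrsf9*) and 1 that was lower (*Myc*), beside 1.07% and 2.55% of all genes tested. Their median log2FC was -0.11, beside 0.0036 over all genes. Some of these genes also differed between the EV RV replicates. *Egr3* was at 25.3 and 6.45 TPM in EV RV, against 16.6 and 9.91 TPM in Tox RV, and *Nr4a3* was at 57.4 and 18.5 TPM in EV RV, against 34.35 and 22.6 TPM in Tox RV. EV RV replicate 1 was the highest library for both and for *Egr1* and *Myc*, and among the members for *Cd5*, *Lag3*, *Tigit* and *Ceacam1*. It was below EV RV replicate 2 for *Irf4* (243 and 389 TPM), *Il2ra* (436 and 490 TPM) and *Tnfrsf9* (631 and 682 TPM). It was nearly level with it for *Egr2* (62.0 and 61.7 TPM) and above it for the rest of the list. The part of the response genes in the values of the members was not tested.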

How the data were processed

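RNA-seq was analysed from 4 libraries of sorted GFP+ CD4 T cells, 2 EV RV and 2 Tox RV, grouped by their labels. According to the methods, the authors ran FastQC on the reads, aligned to mm10 transcripts by bowtie1 and estimated gene levels by RSEM, 1 library per file. The sample records list both Bowtie and Bowtie2. Other versions and use of strand are not given in the sources used here. The deposited expected counts are estimated fragments per gene and not normalized, and the deposited TPM values come from the same RSEM run. A further deposited table, named as TPM but not summing to 1000000, was not used here.

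Expected counts were rounded and tested with edgeR 4.0.16 in R 4.3.3 (filterByExpr with a minimum count of 10, TMM, glmQLFit, glmQLFTest, Benjamini-Hochberg over all genes tested, no block). This edgeR fit is called the reported fit below, whereas the study itself used DESeq2. Standard errors and 95% intervals were derived from the F statistic of each gene and its fold change. DESeq2 1.42.0, limma 3.58.1 on log2(TPM + 1) and log2(TPM + 0.1), other scalings, no filter, the replicate number as a block and leaving out each library were alternatives. The fits were tested on simulated data. The study gives 2 mice per group, but no label ties a library to a mouse. The p-values thus set the group difference against the spread between these libraries, in an estimate that also draws on the other genes.

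The members and gene lists were chosen with earlier results of these data known. Named besides the members were the 3 genes with the smallest p-value among ligands, signalling partners and relatives, *Tox*, *Pdcd1* and genes that overlap or copy a member. The genes *Pvr*, *Tnfrsf14*, *Cd200r1*, *Bag6*, *Adam10*, *Adam17*, *Ptpn11*, *Inpp5d*, *Foxp3*, *Il2ra* and *Ctla4* were added after their values were seen. So were *Egr1*, *Egr2*, *Egr3*, *Nr4a3*, *Nr4a2*, *Tnfrsf9*, *Myc*, *Irf4*, *Ncr1*, *Nkg7*, *Klrd1*, *Klrk1* and *Gzma*. Positions and exon overlaps came from GENCODE M21 (GRCm38, the same build as mm10), copies from blastn 2.17.0 (at least 200 bases at 90% identity), and promoter windows from RefSeq (GRCm38.p6).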

Additional observations from a re-analysis of the deposited data

How the results depend on the processing

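The number of members past an adjusted p-value of 0.05 was 0 in the reported fit and in the other planned settings, except 1 with the replicate number as a replicate block (*Cd160*, adjusted p = 0.0460) and 0 to 3 when single libraries were dropped (*Tigit*, *Havcr2* and *Lair1*, all without EV RV replicate 2, where 4.16% of all genes were called). Over all genes the count was 0 in the reported fit, 22 with DESeq2, 22 without the low-count filter, 16 with the replicate block (0.113% of genes) and 1 to 600 when single libraries were dropped, the highest without EV RV replicate 2. The replicate numbers are shared by the groups in the labels but are not known to mark 1 mouse. The deviations of same-numbered libraries from their group means correlated across genes with r = 0.30. The direction of each member held in every setting, except that *Cd5* was at 0.034 with library totals in place of TMM and at 0.50 without EV RV replicate 1 (from -0.55 to 0.50 when single libraries were dropped). The difference in the mean log2 ratio of *Tigit* to *Cd226* (-0.22 in the reported comparison) ran from -1.07 to 0.64 when single libraries were dropped (0.64 without EV RV replicate 1 and 0.14 without Tox RV replicate 2), and that of *Cd96* to *Cd226* from 0.42 to 1.61. Where a fit left out a library, the lone library of that group was assumed to vary like the other group. Across genes, the log2 difference between replicates had an SD of 0.68 in EV RV and 0.44 in Tox RV. The assumption was therefore poor for fits that left out an EV RV library. Calls from fits that left out a library are not given. The lowest count behind a member was 77, for *Lair1* in EV RV replicate 1.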
